A study of Bos indicus with 8 samples.

Results

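Transcripts of 10 amino acid transporters were examined in cumulus cells of cattle, the somatic layers around the oocyte, after culture with or without follicle-stimulating hormone (FSH). The genes were SLC3A2, SLC7A5, SLC7A6, SLC7A8, SLC38A1, SLC38A2, SLC38A3, SLC1A5, SLC6A9 and SLC7A1, and every probe whose platform gene symbol was one of these was taken. They had 15 probes among the 43794 on the array, and were 10 of the 15229 genes with a named probe. SLC7A6 and SLC38A2 had 3 probes each, SLC6A9 had 2, and the other 7 genes had 1 each. Symbols came from the platform annotation, and all 10 were found in the RefSeq gene table for Bos indicus, where SLC38A1 and SLC38A2 are direct neighbours.

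An oocyte takes up several amino acids poorly by itself. Cumulus cells import them and pass them on through gap junctions, channels that connect the cytoplasm of both cells. Most of these carriers are secondary transporters: they use the sodium gradient, or they exchange an amino acid inside the cell for another outside. FSH is the pituitary hormone that drives follicle growth and makes cumulus cells expand.

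FSH pools of cumulus cells came from cumulus-oocyte complexes cultured for 6 h with recombinant human FSH (0.5 µg/ml), and control pools came from complexes cultured without it. Both arms shared a HEPES-buffered Tyrode lactate medium with 10% fetal bovine serum, pyruvic acid (0.2 mM), gentamicin (50 µg/ml), oestradiol (1 µg/ml) and adenosine (3 mM), so controls also carried steroid, serum and adenosine. Complexes were aspirated from follicles of 3 to 6 mm in slaughterhouse ovaries of animals labelled Bos indicus, no age being given, and each pool has a number per pool of 10 with no unit stated. There were 4 FSH pools and 4 control pools, called biological replicates 1 to 4 in the labels, and each FSH pool was hybridised with the control pool of its number on 2 arrays of opposite dye, 8 arrays in all. Cells were cultured as whole complexes, so the hormone could reach the transcripts directly or through the oocyte, and in pooled RNA fewer cells of a type and less RNA per cell cannot be told apart.

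A probe counted as detected when its signal exceeded a limit set per array and channel at 2 SD above the average of 153 negative control spots. By array, 68.7% to 86.3% of probes exceeded it in the FSH channel, and 33.8% to 83.9% in the control channel. Control pool 3 had the lowest shares, 46.2% and 33.8%, with the highest limit of its dye on both of its arrays. The cell type label was checked on 13 cumulus and granulosa markers, of which 11 were detected well enough to test. FSHR, CYP19A1 and INHBA, for the FSH receptor, aromatase and an activin subunit, exceeded the limit on 8 of 8 arrays in both channels, while FOXL2 and AMHR2 were too dim. With 8 arrays, their number limits how precise each value can be.

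The ratios below are log2 FSH over control from the authors' series matrix, with both dye orientations averaged to 1 value per replicate, so a positive value means more transcript with FSH. limma was fitted to the 4 values of each gene, represented by its brightest probe, with Benjamini-Hochberg adjustment over all 11883 genes tested, and a gene was called at an adjusted p under 0.05. A second fit covered all 30571 tested probes. Of the 10 transporter genes, 8 were bright enough to test, on 12 of 15 probes, and the probes of SLC7A8 and SLC7A1 and the second probe of SLC6A9 were not.

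With FSH, none of the 8 tested transporters was called different from control. This count of 0 stands beside 0% of all genes tested, where the lowest adjusted p was 0.258. At an unadjusted p under 0.05, SLC7A5 and SLC3A2 were lower with FSH, 2 of 8 against 5.58% of all genes, and 0 were higher, against 5.97%. The same 2 genes were below control in all 4 replicates, as were 9.06% of all genes, and 0 transporters were above control in all 4, against 11.7%. Means lay below 0 for 6 transporters (SLC7A5, SLC3A2, SLC1A5, SLC38A2, SLC38A3 and SLC38A1) and above 0 for 2 (SLC7A6 and SLC6A9), with 49% of all genes below 0. The median transporter stood at -0.072, against 0.0038 for all genes tested, and turned to 0.0080 when scanner values were centred on each array's median without loess. A limma fit on single arrays with the replicate block passed 209 genes, but again 0 transporters. It enters the 2 arrays of each replicate as separate values although they carry the same RNA, and allows for this by a single correlation of 0.47 for all genes.

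**Figure D1:**
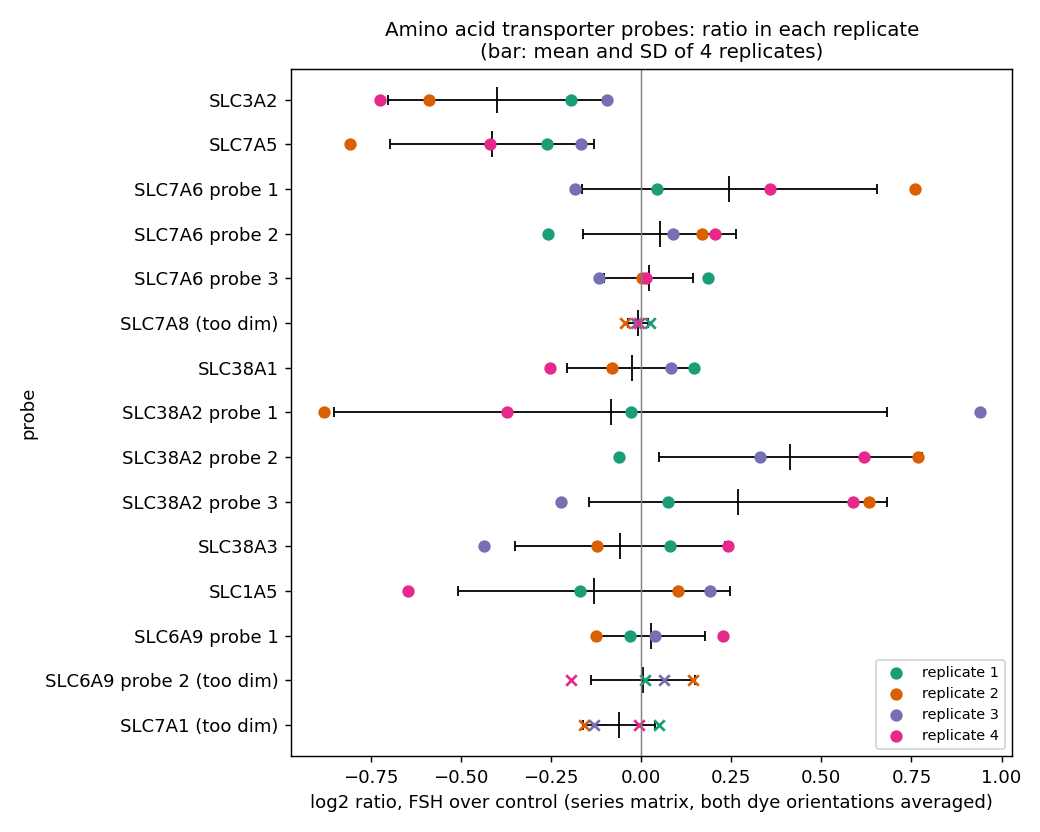
Log2 ratio of FSH over control (horizontal axis) for the 15 transporter probes (vertical axis), with 1 coloured mark per replicate and a black bar for the mean and SD of 4 replicates. Crosses mark the 3 probes too dim to test. SLC3A2 and SLC7A5 have all 4 marks left of 0, and SLC38A2 probe 1 spans from -0.88 to 0.94.

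SLC7A5 encodes a light chain that exchanges large neutral amino acids such as leucine across the plasma membrane without sodium. Its ratios were -0.26, -0.81, -0.17 and -0.42 in replicates 1 to 4, a mean of -0.41 ± 0.28 (SD, n = 4). All 4 replicates lay below 0, replicate 2 furthest. The limma interval (95%) ran from -0.72 to -0.11, with an adjusted p of 0.333. Each of the 8 arrays gave a ratio below 0, with means of -0.42 over the Cy5 orientation (FSH labelled with Cy5) and -0.41 over the Cy3 orientation. Both arrays of a replicate differed by at most 0.13, against a median of 0.41 for all genes tested.

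The SLC7A5 signal was above the limit on 8 of 8 arrays in both channels. Normalized log2 signals were 8.32, 7.85, 9.30 and 8.50 in FSH pools 1 to 4, against 8.56, 8.44, 9.60 and 8.97 in control pools 1 to 4. Every FSH pool stood below the control pool of its number, but the groups overlapped, since FSH pool 3 was above control pools 1, 2 and 4. The pools of replicate 3 were the highest of each arm. The value stayed below 0 in all 19 alternatives run, from -0.53 to -0.23, with adjusted p from 0.0780 to 0.714.

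SLC3A2 encodes the heavy chain that pairs with light chains such as SLC7A5, SLC7A6 or SLC7A8 and carries them to the plasma membrane. Ratios were -0.19, -0.59, -0.095 and -0.72 in replicates 1 to 4, with a mean of -0.40 ± 0.30 (SD, n = 4) and an adjusted p of 0.362 by limma. All 4 were below 0, replicates 2 and 4 clearly further than 1 and 3. The interval ran from -0.72 to -0.082, and the means were -0.28 in the Cy5 orientation and -0.52 in the Cy3 orientation. Of the arrays, 7 gave a ratio below 0 and 1 a ratio above it, replicate 3 in the Cy5 orientation at 0.15.

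This probe was dim. It was above the limit in the FSH channel of 7 of 8 arrays and the control channel of 6 of 8, at 0.969 to 1.74 times and 0.638 to 1.99 times the limit. Log2 signals were 6.96, 6.63, 6.53 and 6.41 in FSH pools 1 to 4, against 6.96, 6.83, 6.49 and 6.76 in control pools 1 to 4. FSH pools 2 and 4 stood below their control pools, while pools 1 and 3 differed little and the groups overlapped. On these scanner values the mean ratio was -0.13, closer to 0 than in the series matrix.

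**Figure D2:**
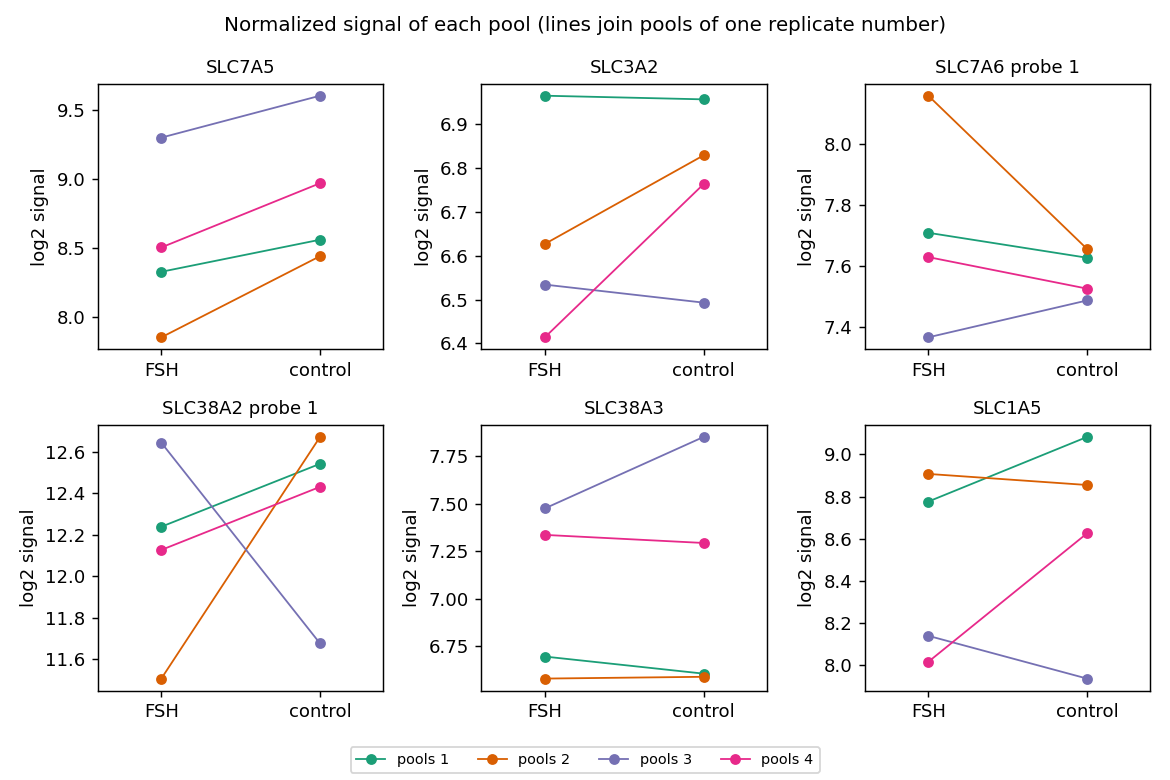
Normalized log2 signal (vertical axes, scaled to each gene) of the 4 FSH pools and 4 control pools (horizontal axes) for 6 transporter probes, with lines joining pools of the same replicate number. All 4 SLC7A5 lines are lower on the FSH side, while the lines of SLC38A2 probe 1 cross, FSH pool 3 standing at 12.65 and control pool 3 at 11.68.

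SLC7A6 encodes another light chain of SLC3A2, which exchanges arginine and other cationic amino acids for neutral ones together with sodium. Its brightest probe gave 0.045, 0.76, -0.18 and 0.36 in replicates 1 to 4, a mean of 0.24 ± 0.41 (SD, n = 4; limma adjusted p = 0.605). Replicate 2 was the highest, without which the mean was 0.073, and replicate 3 the only one below 0. Log2 signals were 7.71, 8.16, 7.37 and 7.63 in FSH pools 1 to 4, against 7.63, 7.66, 7.49 and 7.53 in control pools 1 to 4. The FSH pools spanned 0.791, on both sides of the control pools, which spanned 0.169. The other 2 probes, both near the limit, stood at 0.051 ± 0.21 and 0.021 ± 0.12 (adjusted p = 0.895 and 0.952 in the limma probe fit). They did not share the high value of replicate 2, at 0.17 and 0.0027.

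SLC7A8 encodes a further light chain of SLC3A2, which carries neutral amino acids of a wider range of sizes. Its probe passed the limit in the FSH channel of 1 of 8 arrays and the control channel of 1 of 8. Its ratios lay between -0.043 and 0.024 over the replicates, and at such signals they say little about the transcript. Of SLC3A2 and the 3 light chains among these 10 transporters, SLC7A5 and the first probe of SLC7A6 were thus well above background, SLC3A2 close to it, and SLC7A8 at it.

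SLC38A2 encodes a sodium-coupled carrier of small neutral amino acids such as alanine and glutamine, known in cultured cells to be made in larger amounts when amino acids run short. Its brightest probe was far above background, at 43.5 to 127.4 times the limit in FSH channels and 32.6 to 187.1 times in control channels. Ratios were -0.027, -0.88, 0.94 and -0.37 in replicates 1 to 4. Replicates 2 and 3 lay at opposite ends and cancelled to a mean of -0.084 ± 0.77 (SD, n = 4; limma adjusted p = 0.937). Of all genes tested, 2.46% had a larger SD.

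The opposite values of SLC38A2 were seen on both arrays of each replicate. Replicate 2 gave -0.77 in the Cy5 orientation and -0.99 in the Cy3 orientation, and replicate 3 gave 0.92 and 0.96. Log2 signals were 12.24, 11.51, 12.65 and 12.13 in FSH pools 1 to 4, against 12.54, 12.67, 11.68 and 12.43 in control pools 1 to 4. The low pools were FSH pool 2 and control pool 3, and the others lay between 12.13 and 12.67. The spread between pools, 1.14 among FSH pools and 0.997 among control pools, was several times the difference between the arm means of 12.13 and 12.33.

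The other 2 probes of SLC38A2 were dim and gave a different order. The second stood at -0.061, 0.77, 0.33 and 0.62 in replicates 1 to 4, a mean of 0.41 ± 0.37 (adjusted p = 0.411 in the limma probe fit). The third stood at 0.074, 0.63, -0.22 and 0.59, a mean of 0.27 ± 0.41 (adjusted p = 0.588). Replicate 2, the lowest on the bright probe, was the highest on both dim ones. Signals of the dim probes reached at most 1.86 and 1.81 times the limit, and the 3 probes disagree. The second also differed between orientations, by 0.46 (Cy5 minus Cy3; limma adjusted p = 0.0344), as 8.65% of all probes tested did in either direction.

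The genes most like SLC38A2 over the 8 pools were KLF10 (Pearson r = 0.966), RLF (0.965) and GMNN (0.946), among 11875 compared. Pools of the same number share arrays, so these points are not independent, and r is given as a description. KLF10, a transcription factor first found as a target of transforming growth factor beta, had ratios of -1.06, -2.58, 2.22 and -1.87. RLF, a zinc finger gene, had -0.76, -2.23, 1.06 and -0.80. GMNN, whose product geminin blocks the licensing of DNA replication, had -0.33, -0.41, 0.41 and -0.24. All 3 were positive in replicate 3 alone, as the bright probe of SLC38A2 was, and picking by r over these same pools favours that. None was called (limma adjusted p = 0.713, 0.618 and 0.764).

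SLC38A1 encodes a close relative of SLC38A2 with similar substrates. Its ratios were 0.15, -0.080, 0.083 and -0.25 in replicates 1 to 4, a mean of -0.026 ± 0.18 (SD, n = 4; limma adjusted p = 0.946), with 2 values on each side of 0. It was above the limit in the FSH channel of 8 of 8 arrays and the control channel of 6 of 8. Log2 signals lay between 6.60 and 6.83 in FSH pools, and between 6.67 and 6.83 in control pools. The probe was dim, at 1.08 to 1.70 times the limit in FSH channels and 0.755 to 1.88 times in control channels. The wide swings of SLC38A2 in replicates 2 and 3 were not seen on this neighbouring gene, but a probe this dim may not show them.

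SLC38A3 encodes a sodium-coupled carrier of glutamine, histidine and alanine, and in mice it is the transporter of cumulus cells whose transcript depends on signals from the oocyte. Ratios were 0.081, -0.12, -0.44 and 0.24 in replicates 1 to 4, a mean of -0.059 ± 0.29 (SD, n = 4; limma adjusted p = 0.898). Replicates lay on both sides of 0. The pools differed more by number than by hormone. Log2 signals were 6.69, 6.58, 7.48 and 7.34 in FSH pools 1 to 4, against 6.60, 6.59, 7.85 and 7.29 in control pools 1 to 4. Pools 3 and 4 of both arms stood above pools 1 and 2 of both arms. Both channels were above the limit on 8 of 8 arrays, at 1.10 to 2.75 times in FSH channels and 1.05 to 2.31 times in control channels. Signals of pools 1 and 2 were close to the limit, so the ratios of replicates 1 and 2 say little.

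SLC1A5 encodes a sodium-dependent exchanger of glutamine, alanine, serine and cysteine. Ratios were -0.17, 0.10, 0.19 and -0.65 in replicates 1 to 4, a mean of -0.13 ± 0.38 (SD, n = 4; limma adjusted p = 0.787). Replicate 4 was the lowest, and without it the mean was 0.042. Log2 signals were 8.78, 8.91, 8.14 and 8.02 in FSH pools 1 to 4, against 9.08, 8.86, 7.94 and 8.63 in control pools 1 to 4. Here pools 3 and 4 of both arms stood below pools 1 and 2, the reverse of SLC38A3.

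SLC6A9 encodes a glycine carrier, which in mouse oocytes and early embryos takes up glycine to control cell volume. Its first probe was dim, at 1.25 to 1.49 times the limit in FSH channels and 0.773 to 1.46 times in control channels. It gave -0.031, -0.12, 0.039 and 0.23 in replicates 1 to 4, a mean of 0.028 ± 0.15 (SD, n = 4; limma adjusted p = 0.940). That mean hid a difference between dye orientations. It was -0.19 in the Cy5 orientation and 0.25 in the Cy3 orientation, and in each of the 4 replicates the Cy5 value was the lower. The difference of -0.44 ± 0.20 passed its own limma test (adjusted p = 0.0464), as it did for 7.44% of all genes tested, 4.21% in this direction. Leaving out any 1 replicate ended that call (adjusted p from 0.0614 to 0.144), and on loess-normalized scanner values the difference was -0.12. Slide and dye orientation coincide here and cannot be told apart. The other probe of this gene, too dim to test, stood at 0.0064 ± 0.14.

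**Figure D3:**
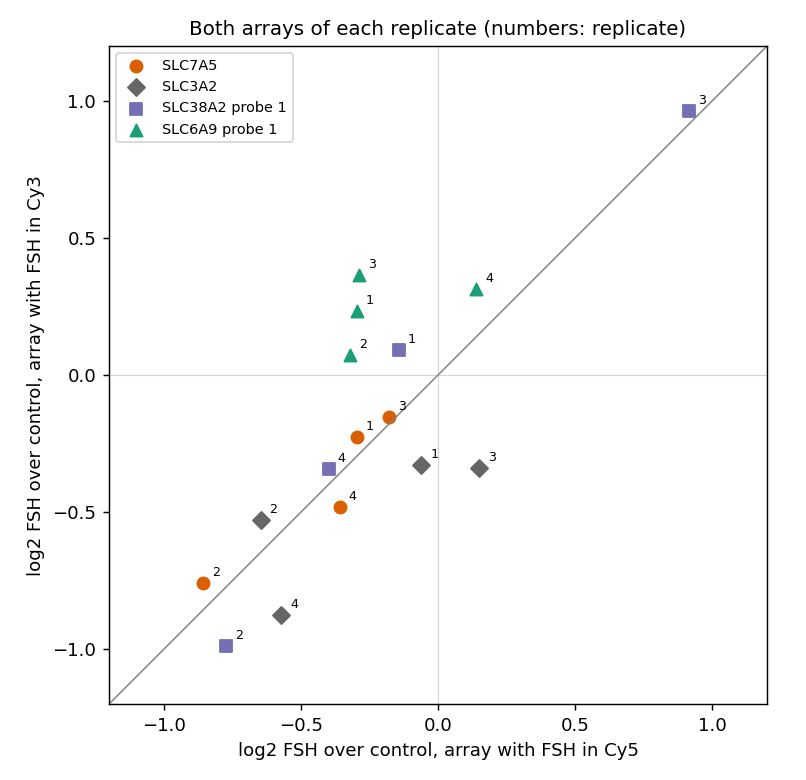
Log2 ratio of FSH over control on the array with FSH in Cy5 (horizontal axis) and on the array with FSH in Cy3 (vertical axis) for 4 transporter probes, with 1 mark per replicate, numbered. Points on the diagonal gave the same ratio on both arrays. SLC7A5 and SLC38A2 probe 1 lie close to it, and all 4 SLC6A9 points lie above it.

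SLC7A1 encodes a carrier of arginine and lysine. Its probe passed the limit in the FSH channel of 3 of 8 arrays and the control channel of 1 of 8, never by more than 1.05 times, and the scanner ignored 1 of its spots. The ratios lay between -0.16 and 0.051, and no level or difference was read from them. For none of the 8 tested genes did the 4 FSH pools lie wholly on one side of the 4 control pools. Over all genes tested, the FSH pools lay wholly below the control pools for 2.13% and wholly above for 2.09%.

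Markers of cumulus and other cells were summed over the same pools, as linear signal of every listed gene on the array, dim ones included. Over the 13 cumulus and granulosa markers, FSH pools 1 to 4 summed to 34313, 36337, 29938 and 22888, against 45472, 45200, 44516 and 50220 in control pools 1 to 4. Every FSH pool was below every control pool, but INHBA and INHA made up most of each sum. The median log2 signal of the 13 markers overlapped between arms, at 9.06, 8.63, 8.11 and 7.85 in FSH pools 1 to 4, against 8.89, 8.99, 8.22 and 8.71 in control pools 1 to 4. The median ratio of the 11 tested markers was 0.049, -0.26, -0.36 and -0.66 in replicates 1 to 4, and the median transporter stood at -0.029, -0.12, -0.028 and -0.31. Both were lowest in replicate 4.

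The 14 oocyte markers on the array, 10 of them tested, summed to 1373, 1371, 1402 and 1346 in FSH pools 1 to 4, against 1394, 1394, 2908 and 1786 in control pools 1 to 4. Control pools 3 and 4 stood out. Their log2 signal of BTG4, a regulator of maternal mRNA decay, was 9.35 and 8.02, against 6.52 to 6.80 in the other 6 pools. FIGLA and SYCP3, and DPPA3, ZP2, ZP4 and ZAR1, which were too dim to test, were also highest in these 2 pools. The other oocyte markers were not highest in both. GDF9 (6.66), BMP15 (6.99) and NLRP5 (6.77) were highest in control pool 3 but not raised in the same way in control pool 4. GDF9 was above the limit in the FSH channel of 3 of 8 arrays and the control channel of 6 of 8, so it was tested only through its control arm. Its ratio was below 0 in all 4 replicates (-0.43 ± 0.14, limma adjusted p = 0.294), at -0.16 in the Cy5 orientation and -0.71 in the Cy3 orientation. Its FSH pools lay wholly below the control pools, as for 2.13% of all genes tested, and passing the filter through the control arm favours that. OOEP was highest in FSH pool 3 (6.80). ZP3 lay between 6.66 and 6.69 in all 8 pools, DAZL was lowest in control pool 4 (6.45) and MOS was lowest in control pool 3 (6.78).

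The 13 theca, stroma and endothelial markers, 10 of them tested, summed to 18503, 19447, 11773 and 9869 in FSH pools 1 to 4, against 21284, 19721, 11181 and 20746 in control pools 1 to 4. These sums were low in pools 3 of both arms and FSH pool 4, as SLC1A5 was, but ACTA2 and MCAM made up most of each. PDGFRA went the other way, at 9.28 and 9.60 in FSH pools 3 and 4 and 9.51 and 9.23 in control pools 3 and 4, against 8.78 to 9.04 in the other 4 pools. LUM was highest in FSH pool 3 (10.72). Of 8 immune markers 4 were tested and CSF1R and ITGAM exceeded the limit on no array, and sums over all 8 ran from 920 to 1682 in FSH pools, against 959 to 1998 in control pools. PTPRC exceeded the limit on 8 of 8 arrays in both channels, at 8.28 to 10.00 in FSH pools and 8.47 to 10.46 in control pools. LYZ was higher with FSH in all 4 replicates (0.46 ± 0.46, limma adjusted p = 0.408), while PTPRC, CD68 and CD3E had ratios on both sides of 0. The 4 red cell genes, 3 of them tested, summed to 404 to 458 in FSH pools, against 411 to 454 in control pools. The part of these cells in the transporter values was not tested. Without replicates 3 and 4, SLC7A5 stood at -0.53 and SLC3A2 at -0.39, neither called (limma adjusted p = 0.447 and 0.534).

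Other genes of amino acid supply and sensing were taken as lists. Of 40 other plasma membrane transporters of amino acids 29 were tested, 13 with a mean below 0 and 16 above, with a median of 0.010. None was called. In all 4 replicates 5 of 29 were lower, against 9.06% of all genes, and 6 of 29 were higher, against 11.7%. At an unadjusted p under 0.05, SLC1A4 and SLC38A5 were lower, 2 of 29 against 5.58% of all genes. SLC1A3 and SLC6A14 were higher, 2 of 29 against 5.97%. Both counts were near the shares of all genes, and these genes were named after their values were seen, except SLC1A4.

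SLC1A4, a relative of SLC1A5 that exchanges alanine, serine and cysteine, had the largest difference of the 29. Its ratios were -0.13, -1.22, -1.32 and -0.85 in replicates 1 to 4, a mean of -0.88 ± 0.54 (SD, n = 4; limma adjusted p = 0.294). Log2 signals were 7.43, 7.05, 7.17 and 7.04 in FSH pools 1 to 4, against 7.54, 7.67, 7.91 and 7.73 in control pools 1 to 4, and the groups did not overlap. Over all genes tested, FSH pools lay wholly below control pools for 2.13%. With the replicate as a block on 8 single arrays the limma adjusted p was 0.0292. On loess-normalized scanner values the mean was -0.54 (limma adjusted p = 0.432), and on median-centred scanner values -0.44 (adjusted p = 0.581). A second, dimmer probe of SLC1A4 gave -0.29 ± 0.30, also below 0 in all 4 replicates.

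Carriers on the higher side at that p were SLC1A3, a glutamate carrier, and SLC6A14, a broad carrier of neutral and cationic amino acids. SLC6A15, named after its values were seen, was not among them (0.30 ± 0.38, limma adjusted p = 0.508). All 3 of its probes were above 0 in all 4 replicates, the other 2 at 0.22 ± 0.22 and 0.14 ± 0.11. Its FSH pools lay wholly above the control pools, the nearest at 7.163 and 7.162, as for 2.09% of all genes tested. SLC1A3 stood at 0.48 ± 0.19 and SLC6A14 at 0.43 ± 0.23 (limma adjusted p = 0.294 for both), but a second probe of SLC1A3 stood at 0.0097. The 2 other probes of SLC6A14 stood at 0.24 ± 0.33 and -0.021 ± 0.19. SLC38A5, a relative of SLC38A3 with similar substrates, stood at -0.45 ± 0.43 (adjusted p = 0.396).

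**Figure D4:**
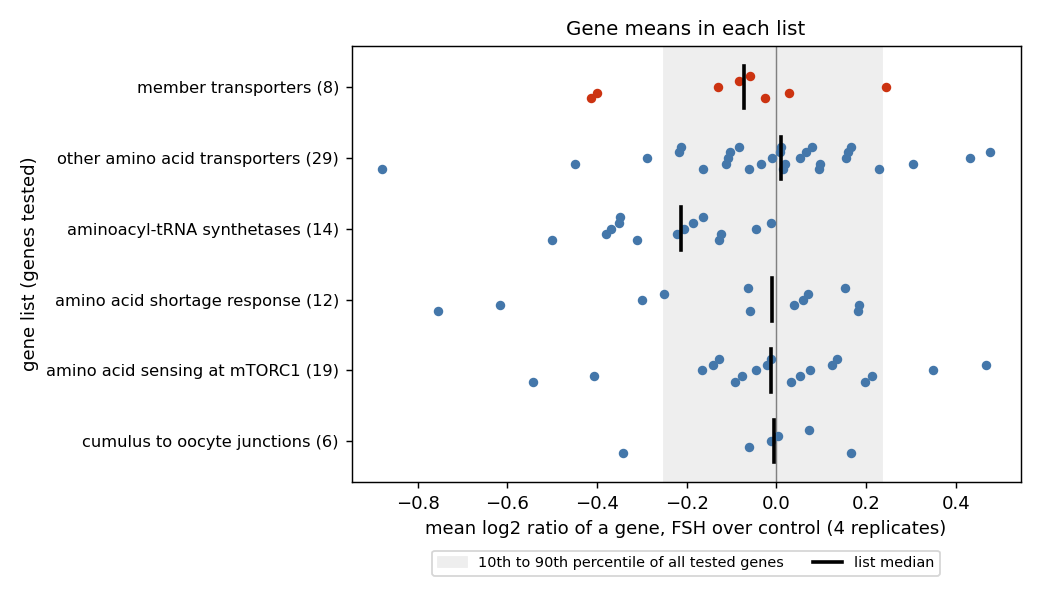
Mean log2 ratio of FSH over control over 4 replicates (horizontal axis) for each tested gene of 6 lists (vertical axis), with black bars for list medians and a grey band from -0.25 to 0.24, the 10th to 90th percentile of all tested genes. All 14 aminoacyl-tRNA synthetases lie below 0, with a median of -0.21, while the other lists lie on both sides.

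Aminoacyl-tRNA synthetases load amino acids onto tRNA and so use what the carriers import. Of 18 listed 14 were tested, and 14 had a mean below 0 and 0 above, against 49% of all genes below 0. None was called. In all 4 replicates 6 of 14 were lower, against 9.06% of all genes. At an unadjusted p under 0.05 NARS, SARS, TARS and YARS were lower, 4 of 14 against 5.58% of all genes. The list median was -0.21, at -0.052, -0.20, -0.38 and -0.45 in replicates 1 to 4, and turned to 0.0086 when scanner values were centred on each array's median without loess. SARS had the largest difference, with ratios of -0.032, -0.23, -0.50 and -1.23 in replicates 1 to 4 and a mean of -0.50 ± 0.53 (limma adjusted p = 0.416). Replicate 4 was the lowest, and the mean was -0.25 without it and -0.13 without replicates 3 and 4. NARS, singled out after its values were seen, stood at -0.35 ± 0.13 (adjusted p = 0.294), with log2 signals of 11.31, 11.31, 11.43 and 11.28 in FSH pools 1 to 4, against 11.47, 11.51, 11.73 and 11.57 in control pools 1 to 4. These did not overlap, and over all genes tested FSH pools lay wholly below control pools for 2.13%. The 2 other probes of NARS varied in sign or spread, at -0.065 ± 0.31 and -0.34 ± 0.53.

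Genes of the response to amino acid shortage, run by the kinase GCN2 and the factor ATF4, were tested for 12 of 18. Means lay below 0 for 6 and above for 6, with a median of -0.010, and 0 were called. DDIT4, an inhibitor of mTORC1, had the largest difference, with ratios of -0.54, -1.57, 0.32 and -1.21 in replicates 1 to 4 and a mean of -0.75 ± 0.83 (limma adjusted p = 0.413), or -0.48 without replicate 2. Like SLC38A2 on its bright probe, it was lowest in replicate 2 and above 0 in replicate 3 alone. SLC36A4 and RARS, from 2 of the other lists, were also above 0 in replicate 3 alone, so this sign order is not particular to shortage genes. DDIT4 and SHMT2 were lower at an unadjusted p under 0.05, 2 of 12 against 5.58% of all genes, and 0 were higher, against 5.97%. SHMT2, a mitochondrial enzyme that turns serine into glycine, stood at -0.62 ± 0.36 (limma adjusted p = 0.294). Its 3 other probes stood at -0.26, 0.083 and -0.16.

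mTORC1 is the kinase complex that amino acids inside the cell switch on. Of 29 genes of its amino acid sensing 19 were tested, 10 with a mean below 0 and 9 above, with a median of -0.012 and 0 called. MTOR itself stood at 0.17, -0.22, -0.95 and -1.17 in replicates 1 to 4, a mean of -0.54 ± 0.62 (limma adjusted p = 0.440). Without replicate 4 it was -0.33, and without replicates 3 and 4 -0.026. At an unadjusted p under 0.05, RRAGC, a GTPase that brings the complex to the lysosome, was lower (-0.41 ± 0.32), 1 of 19 against 5.58% of all genes. SESN3, a leucine sensor family gene, and FNIP1, a partner of folliculin, were higher (0.47 ± 0.13 and 0.21 ± 0.070), 2 of 19 against 5.97%. SESN3 was dim, above the limit in the control channel of 6 of 8 arrays. Its log2 signals were 6.81 to 6.89 in FSH pools, against 6.64 to 6.79 in control pools. FNIP1 had 2 tested probes, and only the brighter is given. RRAGC, SESN3 and FNIP1 were named after their values were seen, and none was called.

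Of 7 genes of cumulus to oocyte junctions 6 were tested, 3 with a mean below 0 and 3 above, with a median of -0.0049 and 0 called. GJA1, which encodes the main gap junction protein of cumulus cells, was bright and stood at -0.061 ± 0.50 (limma adjusted p = 0.935). TJP1, for a scaffold protein of junctions, stood at -0.34 ± 0.35 (adjusted p = 0.442), below 0 in all 4 replicates in the series matrix but at 0.096 on median-centred scanner values and at -0.17 without replicate 2.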

How the data were processed

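RNA from cumulus pools was amplified linearly over 2 rounds with T7 polymerase and labelled without an enzyme, per the labels' protocols. The deposited scanner files hold spot intensity per channel on a linear scale. The deposited series matrix holds log2 FSH over control, matching the authors' normalized table to within 5.0e-06 after turning the ratio and each array's scanner ratio with r from 0.657 to 0.833 across probes. Column medians lay between -0.0038 and 0.018. How the authors normalized, and a genome build, are not given in the sources used here, so no coordinates are printed. All arrays of a slide share a dye orientation.

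Ratios of both orientations were averaged per replicate. limma 3.58.1 in R 4.3.3 (lmFit with an intercept, eBayes) was run on the 4 values, checked on simulated data. A probe was tested if the signal of one arm, FSH or control, was above the negative control limit on both arrays of 3 or more replicates. Pool signals came from scanner values after normexp (offset 50), global loess and quantile normalization of average intensity, over both dyes. They are not on the series matrix's scale and set no probe against another. A marker sum is over the linear normalized signal of all listed genes on the array, tested or not.

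The platform gave 1 symbol for 21790 probes and none for 22004, and 18210 were found in RefSeq's NIAB-ARS_B.indTharparkar_mat_pri_1.0 table. Named were all transporters, the largest difference per list, any called gene, the 3 genes most like the brightest transporter and the 3 with the lowest p. Members, lists and tests were chosen with earlier results of these data known. The array ratios pair pools by number. FSH and control pool deviations correlated by number with r of 0.70, 0.72, 0.61 and 0.20 across probes, to which shared arrays add. Ratios of the 2 dye orientations correlated with r of 0.10 in replicate 1, against 0.43, 0.45 and 0.44 in replicates 2 to 4, so replicate 1 was the least reproducible. Nothing in the labels says whether pools came from separate animals, so p-values measure the spread between these pools.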

Additional observations from a re-analysis of the deposited data

Results flagged for a closer look

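SLC6A9 differed between dye orientations, by -0.44 on the log2 scale (Cy5 orientation minus Cy3 orientation), in the same direction in 4 of 4 replicates (limma adjusted p = 0.0464 over all genes). The test was passed in 4 of 11 alternatives, with values from -0.52 to -0.12. The second probe of SLC38A2 differed the other way, by 0.46 (adjusted p = 0.0344 over all probes, of which 8.65% passed), also in 4 of 4 replicates. Slide and dye coincide on these arrays. In 36 groups of 4 pool or replicate values of the transporters, 0 had a value far from the others by Dixon's criterion, which chance meets in about 5% of groups.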

How the results depend on the processing

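Of the 8 tested transporters 0 were called in each of 19 alternatives, 2 of them chosen after seeing the data (the limit met on either array of a replicate, and replicates 1 and 2 alone). SLC7A5, SLC3A2 and the first probe of SLC7A6 kept their sign in every one run. The alternatives moved counts over all genes and probes, against 0 called of either. Genes called were 209 with the replicate block, 159 with the replicate block and a dye term, 2 with an intensity trend and robust estimation, 33 without replicates 3 and 4, and 0 to 19 leaving out 1 replicate, the 19 without replicate 3. Probes called were 555, 416, 13 and 102 under the same settings, 0 to 41 leaving out 1 replicate (41 without replicate 3), 26 within the slide with FSH in Cy5 and 2 within that with FSH in Cy3. Both block fits called 3 genes of the 5 other lists, against 0. Block correlations were 0.47 for genes and 0.32 for probes, and 0.64 and 0.53 with the dye term.

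The 884 genes that differed between dye orientations became 3397 on loess-normalized scanner values, 5335 on these without background correction, 0 with median centring, 556 under the stricter filter, 59 without replicates 3 and 4 and 207 to 472 leaving out 1 replicate. On median-centred scanner values the median of all genes stood at 0.055, and SLC38A2 turned to 0.15, SLC1A5 to 0.039, TJP1 to 0.096, GJA1 to 0.32 and probe 3 of SLC7A6 to -0.0094. Within the slide with FSH in Cy5, SLC38A1 turned to 0.022, SLC6A9 to -0.19, GJA1 to 0.0051 and probes 2 and 3 of SLC7A6 to -0.076 and -0.095. The mean over its 3 probes turned SLC38A2 to 0.20. Leaving out 1 replicate, SLC7A6 ran from 0.073 to 0.39, SLC38A1 from -0.084 to 0.049, SLC38A2 from -0.43 to 0.18, SLC38A3 from -0.16 to 0.067, SLC1A5 from -0.24 to 0.042, SLC6A9 from -0.039 to 0.078, GJA1 from -0.21 to 0.12, and probes 2 and 3 of SLC7A6 from -9.0e-05 to 0.15 and from -0.033 to 0.067. Without replicates 3 and 4, SLC38A1 turned to 0.033, SLC6A9 to -0.078 and probe 2 of SLC7A6 to -0.044. The cause of these shifts was not tested. Signal over background left SLC7A8, SLC7A1 and the second probe of SLC6A9 untested. It also limits SLC3A2, SLC38A1, the first probe of SLC6A9, and probes 2 and 3 of both SLC7A6 and SLC38A2. These tested probes reached at most 1.99 times the limit. In pools 1 and 2, signal over background also limits SLC38A3, whose lowest signals were 1.10 times the limit in FSH channels and 1.05 times in control channels.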

Other observations

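Outside amino acid supply, the 3 genes with the lowest unadjusted p were lower with FSH in all 4 replicates, and picking by p favours that. LOC100294980, a locus without a gene name in these files, stood at -0.98, -0.96, -0.77 and -1.08 in replicates 1 to 4. PPP1R3C, which targets protein phosphatase 1 to glycogen, stood at -0.67, -1.12, -0.87 and -1.15. LGP2, a cytosolic sensor of double-stranded RNA, stood at -1.63, -1.66, -0.79 and -1.72. FSH pools lay wholly below control pools in all 3, as for 2.13% of all genes tested, and picking by p favours this too. None passed limma (adjusted p = 0.258 for each). On loess-normalized scanner values the means were -0.94 for LOC100294980, -0.43 for PPP1R3C and -1.28 for LGP2. In the series matrix they were -0.95, -0.95 and -1.45. With the replicate as a block on single arrays the adjusted p was 0.00083 for LOC100294980, 0.0158 for PPP1R3C and 0.00083 for LGP2. INHBA, the activin subunit among the cumulus markers, stood at -0.91 ± 0.47 (limma adjusted p = 0.294), below 0 in all 4 replicates.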
